A study of Mus musculus with 7 samples.

Results

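MOL5/6c is one of 4 subclusters of the MOL5/6 mature oligodendrocytes in single-cell RNA-seq of oligodendrocyte lineage cells (OLCs) from adult mouse cortex. Its members were the cells that the authors' annotation after quality control named MOL5/6c, and these numbered 1044 of 9291 kept cells. The cells came from 3 libraries, 1 per condition, of mice of the C57BL/6-B6CBA background at postnatal day (P) 90, given as 11 to 14 weeks. Control dOLCs were the TdTom+ cells of Emx1-Cre:Sox10-GFP-TdTom animals, in which Emx1-Cre marks cells derived from the dorsal forebrain. Control vOLCs were the GFP+ cells of the same genotype, of ventral origin. Ectopic vOLCs were the GFP+ cells of animals that carried Emx1-Cre and Sox10-GFP-tdTom with a further transgene, Sox10-GFP-DTA, from which diphtheria toxin fragment A kills dorsally derived OLCs and ventrally derived cells take their place. All 3 groups carried Emx1-Cre and the Sox10-driven reporter, and the toxin transgene was carried by the ablated mice alone. The methods give 4 control and 2 ablated mice, whose cells cannot be told apart in the files. The labels name the motor and cingulate cortex, and the dissociation protocol also names the corpus callosum.

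Oligodendrocytes wrap axons in myelin, a stack of membrane rich in cholesterol, galactolipids and a small number of abundant proteins such as myelin basic protein (Mbp). Mature oligodendrocytes (MOLs) are grouped by their RNA, and MOL5/6 is prominent in the adult forebrain. It is marked by Ptgds, which makes prostaglandin D2 and is secreted as a lipid carrier, by the nuclear cytokine Il33, by the carbonic anhydrase Car2 and by the glutamate receptor Grm3. Those 4 genes are set beside the label here. The authors took the label by transfer from earlier data, so the genes are no independent check of it.

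Each library was 1 sample, so no test between conditions was possible, and a comparison between clusters is not a test because the same genes drew the clusters. Unique molecular identifiers (UMIs), each standing for 1 captured RNA molecule, were summed over the cells of a cluster in a library and scaled to a total of 1000000 (CPM). Ratios are given as log2 values with exact 95% intervals, which cover counting error only and not the spread between mice. MOL5/6c summed to 4126918 UMIs over control dOLCs, 360772 over control vOLCs and 320789 over ectopic vOLCs. The median MOL5/6c cell held 4273.5, 7099 and 4940 UMIs, in that order, and 1797.5, 2476 and 1956 genes. In control dOLCs this median lay between those of MOL5/6b (2844), MOL5/6a (3910) and MOL5/6d (6036). The median percent of mitochondrial UMIs per MOL5/6c cell was 5.56, 5.29 and 6.28, and in control dOLCs it was 8.67 for MOL5/6b, 6.68 for MOL5/6a and 4.06 for MOL5/6d. Kept barcodes were shared between libraries in 9 cases (control dOLCs and control vOLCs), 24 (control dOLCs and ectopic vOLCs) and 6 (both vOLC libraries), which took in 3, 1 and 0 MOL5/6c cells.

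MOL5/6c was mainly a population of control dOLCs. It held 928 of 5804 control dOLCs (16.0%, Clopper-Pearson 95% interval 15.1 to 17.0) and 53 of 925 control vOLCs (5.73%, 4.32 to 7.43). In the ectopic library it held 63 of 2562 cells (2.46%, 1.89 to 3.14). Among MOL5/6 cells alone its share was 24.6%, 9.45% and 3.42%. Control dOLCs therefore supplied 88.9% of all MOL5/6c cells. With 1 library per condition, a cluster drawn mostly from 1 library cannot be told apart from a property of that library. MOL5/6b also drew most of its cells, 87.5%, from control dOLCs, and it held 33.5% of that library, 25.5% of control vOLCs and 1.64% of ectopic vOLCs. MOL5/6a held 5.74%, 25.6% and 35.1% of the 3 libraries in that order, and MOL5/6d 9.80%, 3.78% and 32.7%.

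**Figure D1:**
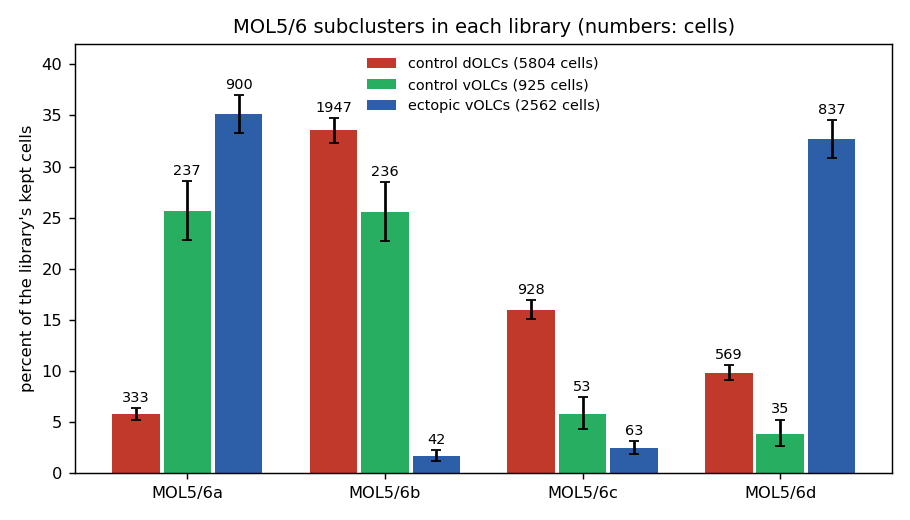
Percent of each library's kept cells in the 4 MOL5/6 subclusters, with Clopper-Pearson 95% intervals as error bars and the number of cells above each bar. The MOL5/6c bars stand at 16.0%, 5.73% and 2.46% for control dOLCs, control vOLCs and the ectopic library.

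All 4 markers were higher in MOL5/6c than in OPCs, which does not tell MOL5/6 from other mature cells. Among them 3, Ptgds, Car2 and Il33, were lower than in the other MOL5/6 subclusters together. Ptgds (mm10 chr2:25466709-25470046, minus strand) stood at 25792 CPM in control dOLCs, at 26304 in the ectopic library and at 30346 in control vOLCs. In each library that was below MOL5/6a, MOL5/6b and MOL5/6d, which in control dOLCs held 39018, 30932 and 34162 CPM. It was above MOL2a (11641 CPM in control dOLCs) and MOL2b (8702), and near MFOLb (24484), the myelin-forming cells, and MOL1 (26610). Ptgds therefore did not set MOL5/6c apart from MFOLb or MOL1 in that library. The OPCs of the same libraries, which serve as a background because precursors should hold little Ptgds, were at 5773, 3595 and 3367 CPM. Every OPC held a Ptgds UMI at median depths of 2795, 3454 and 3421.5 UMIs, so a share of cells with a UMI says nothing here.

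Car2 stood at 4944, 5217 and 4913 CPM in MOL5/6c of the 3 libraries and at 1116, 666 and 556 CPM in OPCs. Il33 stood at 613, 383 and 733 CPM, against 147, 70.9 and 79.0 CPM in OPCs. Grm3 was the least abundant, at 110, 80.4 and 81.0 CPM against 19.0, 15.2 and 4.16 in OPCs. Grm3 was the one marker whose ratio to the other 3 subclusters together was not below 0 in control dOLCs, at a log2 ratio of 0.12 (95% interval −0.04 to 0.28). The ratios of Ptgds, Car2 and Il33 there were −0.36 (−0.36 to −0.35), −0.29 (−0.32 to −0.27) and −0.29 (−0.35 to −0.22). These 3 genes were also lower in MOL5/6c of the ectopic library (−0.47, −0.45 and −0.65) and of control vOLCs (−0.48, −0.47 and −0.82). The cells of MOL5/6c overlapped those of its neighbours: with every cell of control dOLCs thinned to 1000 UMIs, the quartiles of Ptgds UMIs were 16 and 33 in MOL5/6c cells and 20 and 39 in MOL5/6b cells.

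**Figure D2:**
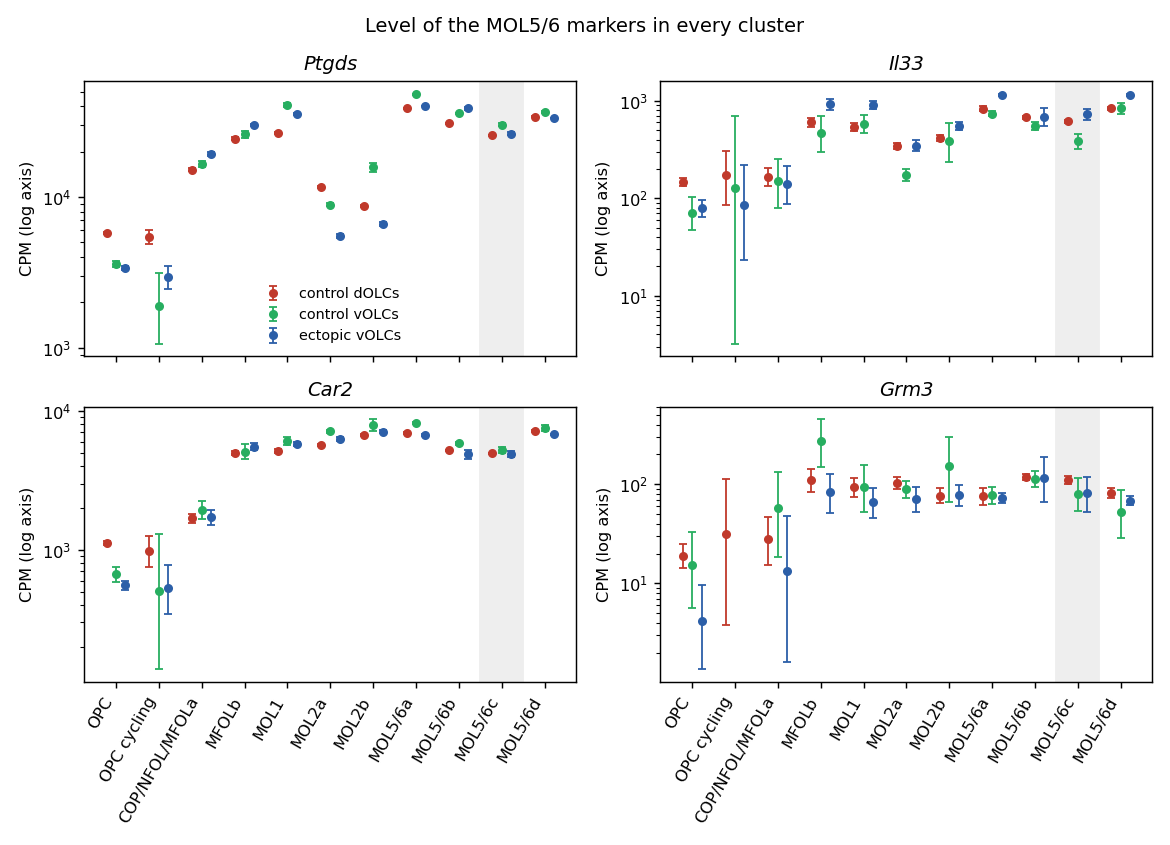
CPM of Ptgds, Il33, Car2 and Grm3, on log axes, in every cluster of the 3 libraries, with exact Poisson 95% intervals and MOL5/6c shaded grey. Clusters with 0 UMIs are not drawn, and the MOL5/6c points of Ptgds, at 25792 to 30346 CPM, sit below those of the other MOL5/6 subclusters in each library.

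Markers of neurons, microglia and vascular cells were near 0, and astrocyte markers were at a low level in MOL5/6c and its neighbours alike. None of the 10 neuron, 9 microglia and 10 vascular markers held enough UMIs to be compared, and their summed levels in MOL5/6c of control dOLCs were 31.3, 3.63 and 3.39 CPM. The summed 9 astrocyte markers were at 317 CPM in MOL5/6c of control dOLCs, against 362 CPM in the other 3 subclusters, at 211 CPM in control vOLCs and at 315 CPM in ectopic vOLCs. Pdgfra, the receptor that defines OPCs, was at 16.5, 11.1 and 3.12 CPM in MOL5/6c and at 1450, 2174 and 1363 CPM in OPCs.

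By its whole profile MOL5/6c bordered on MOL5/6d in control dOLCs, while MOL5/6b was rarer among its neighbours than in the library. Of the 30 nearest neighbours of a MOL5/6c cell of control dOLCs, 77.7% were MOL5/6c cells, 12.1% MOL5/6d, 4.40% MOL5/6b, 3.38% MOL1 and 2.09% MOL2b, and none were MOL5/6a. With cells thinned to 1000 UMIs these shares were 65.0% MOL5/6c, 15.9% MOL5/6d and 11.0% MOL5/6b. The subclusters MOL5/6b and MOL5/6d made up 33.5% and 9.80% of that library. In control vOLCs 48.2% of the neighbours were MOL5/6c and 25.0% MOL5/6d. In ectopic vOLCs 38.5% were MOL5/6c, 44.3% MOL5/6d and 10.2% MOL1. Most of a cell's neighbours were of its own subcluster for 85.2% of MOL5/6c cells of control dOLCs, 54.7% of those in control vOLCs and 28.6% in the ectopic library. In control dOLCs the same share was 94.4% for MOL5/6b, 89.5% for MOL5/6d and 44.1% for MOL5/6a. The number of MOL5/6c cells, 928, 53 and 63, limits how many neighbours of the same kind a cell can have, so these shares are not comparable between libraries. With the 3 libraries searched together, and each library's cells given the same total weight, 50.3% of the neighbours of ectopic MOL5/6c cells came from control dOLCs, 9.47% from control vOLCs and 40.3% from the ectopic library. For ectopic MOL5/6d cells 94.1% came from the ectopic library, which holds 837 such cells against 63 of MOL5/6c.

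Set against MOL5/6a, b and d together within control dOLCs, few genes of MOL5/6c differed by 2-fold, and more did against MOL5/6a alone. Of 4974 genes with at least 50 UMIs and a UMI in at least 10% of cells of one side, 136 (2.73%) were at least 1.5-fold higher and 55 (1.11%) at least 1.5-fold lower. At 2-fold the numbers were 3 (0.0603%) and 0 (0%), and 0.486% and 0.175% in cells of 3500 to 5500 UMIs, a setting added after the data were seen. Against single subclusters at 2-fold, 8.27% of genes were higher and 1.93% lower than in MOL5/6a, 0.609% and 0.0406% than in MOL5/6b, and 0.75% and 0.0174% than in MOL5/6d. At 1.5-fold, 25% of genes were higher and 10.2% lower than in MOL5/6a, 7.22% and 1.36% than in MOL5/6b, and 9.13% and 2.34% than in MOL5/6d. The median log2 ratio of all genes was 0.09 against the 3 together, 0.20 against MOL5/6a, 0.08 against MOL5/6b and −0.02 against MOL5/6d, so ratios should be read from those values. Across genes, the ratio against MOL5/6d went with transcript length (Spearman rho 0.57 over 5586 genes, which are not independent), as did, less closely, the ratios against MOL5/6a (0.25 over 4998 genes) and against the 3 together (0.21 over 4847 genes). The ratio against MOL5/6b went the other way (−0.19 over 4804 genes).

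The genes highest in MOL5/6c of control dOLCs, among those above 0 against each of the other 3 subclusters, were led by Ybx3, a cold-shock-domain protein that binds RNA and DNA (mm10 chr6:131364855-131388476, minus strand). Ybx3 stood at 68.6 CPM in MOL5/6c and 30.7 CPM in the other subclusters of control dOLCs, at 77.6 and 29.7 in control vOLCs, and at 71.7 and 21.0 in ectopic vOLCs. The log2 ratios were 1.16 (0.92 to 1.39), 1.39 (0.71 to 2.03) and 1.77 (1.09 to 2.40). MOL5/6c was thus above the other subclusters in all 3 libraries for Ybx3, whose level in OPCs was 14.1 to 20.3 CPM.

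Hnrnpa0, an RNA-binding protein of the hnRNP family, stood at 49.7 against 23.2 CPM in control dOLCs, 41.6 against 21.5 in control vOLCs and 65.5 against 13.2 in ectopic vOLCs. Its log2 ratio was 1.10 (0.83 to 1.37) in control dOLCs and 2.31 (1.58 to 2.98) in ectopic vOLCs. Alyref, an adaptor for the export of mRNA from the nucleus, was at 0.91 (0.61 to 1.21) in control dOLCs. Against MOL5/6d alone, however, the Alyref ratio was 0.09. Nsa2, a factor in making the large ribosomal subunit, was at 94.7 against 52.3 CPM, a log2 ratio of 0.86 (0.67 to 1.05), and Ube2m, the enzyme that conjugates NEDD8, at 56.5 against 29.9 CPM, a log2 ratio of 0.92 (0.67 to 1.17).

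The others of these 12 genes ranged from 0.85 to 1.07 in log2 ratio in control dOLCs. Among them were Naa30, the catalytic subunit of an N-terminal acetyltransferase; Srgap3, a GTPase-activating protein of the Slit-Robo pathway; Ccnk, the cyclin of CDK12 and CDK13; Arid1b, a subunit of the BAF chromatin remodelling complex; Fam117b; and Rps12-ps3. The last is a copy of Rps12, and reads of the pair cannot be told apart with certainty. Rps12 itself was at 535 against 324 CPM, a log2 ratio of 0.73 (0.65 to 0.80). In control vOLCs 11 of the 12 ratios were above 0, with Naa30 the exception at −0.68 on 3 UMIs, and in ectopic vOLCs all 12 were, but the counting interval left out 0 for 5 and 8 of the 12. Of all genes compared, 54.5% and 56.5% were above 0 in these libraries. The annotation was drawn on the 3 libraries together, so the libraries are not independent in this respect.

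The genes lowest in MOL5/6c included Cd9, Slc35a2, Tnfaip6 and Serpinb1a. Cd9, a tetraspanin of the cell surface (mm10 chr6:125460266-125494791, minus strand), stood at 966 CPM in MOL5/6c and 1682 CPM in the other 3 subclusters of control dOLCs, at 926 and 1755 in control vOLCs, and at 982 and 1721 in ectopic vOLCs. Its log2 ratios were −0.80 (−0.85 to −0.75), −0.92 (−1.09 to −0.76) and −0.81 (−0.98 to −0.65), in the same order. The other subclusters were mixed differently in each library, with 333, 1947 and 569 cells of MOL5/6a, b and d in control dOLCs, 237, 236 and 35 in control vOLCs, and 900, 42 and 837 in ectopic vOLCs, so the sizes of these ratios are not comparable between libraries, for Cd9 or any other gene or list. In OPCs of control dOLCs Cd9 was at 2564 CPM, above MOL5/6c. Slc35a2, which carries UDP-galactose into the Golgi, was at 74.9 against 129 CPM in control dOLCs, a log2 ratio of −0.78 (−0.97 to −0.61). Tnfaip6, a secreted hyaluronan-binding protein, was at 217 against 359 CPM (−0.72, −0.83 to −0.62), and Serpinb1a, an inhibitor of serine proteases, at 168 against 281 CPM (−0.74, −0.86 to −0.62). In ectopic vOLCs the ratios of Tnfaip6 and Serpinb1a were −1.40 (−1.80 to −1.04) and −1.17 (−1.60 to −0.76).

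The other genes of the 12 lowest were scarce, at 17.2 to 27.9 CPM in MOL5/6c of control dOLCs. They were Sav1, a scaffold of the Hippo pathway; March1, a ubiquitin ligase for MHC class II; Apmap; Alg2, a mannosyltransferase of N-glycan synthesis; Igf2bp3, an RNA-binding protein; H2-D1, an MHC class I chain; Prcp, a carboxypeptidase of the lysosome; and Gm12166. All 12 ratios were below 0 in control vOLCs, 9 of them with an interval that left out 0. In ectopic vOLCs 11 were below 0, 6 of them with such an interval, and Igf2bp3 stood at 0.23 (−0.85 to 1.13). Of all genes, 45.5% and 43.5% were below 0. Among the 55 genes at least 1.5-fold lower in control dOLCs, 51 and 53 were below 0 in these libraries (28 and 30 with an interval that left out 0). Of the 136 at least 1.5-fold higher, 122 and 131 were above 0 (69 and 83 with such an interval).

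**Figure D3:**
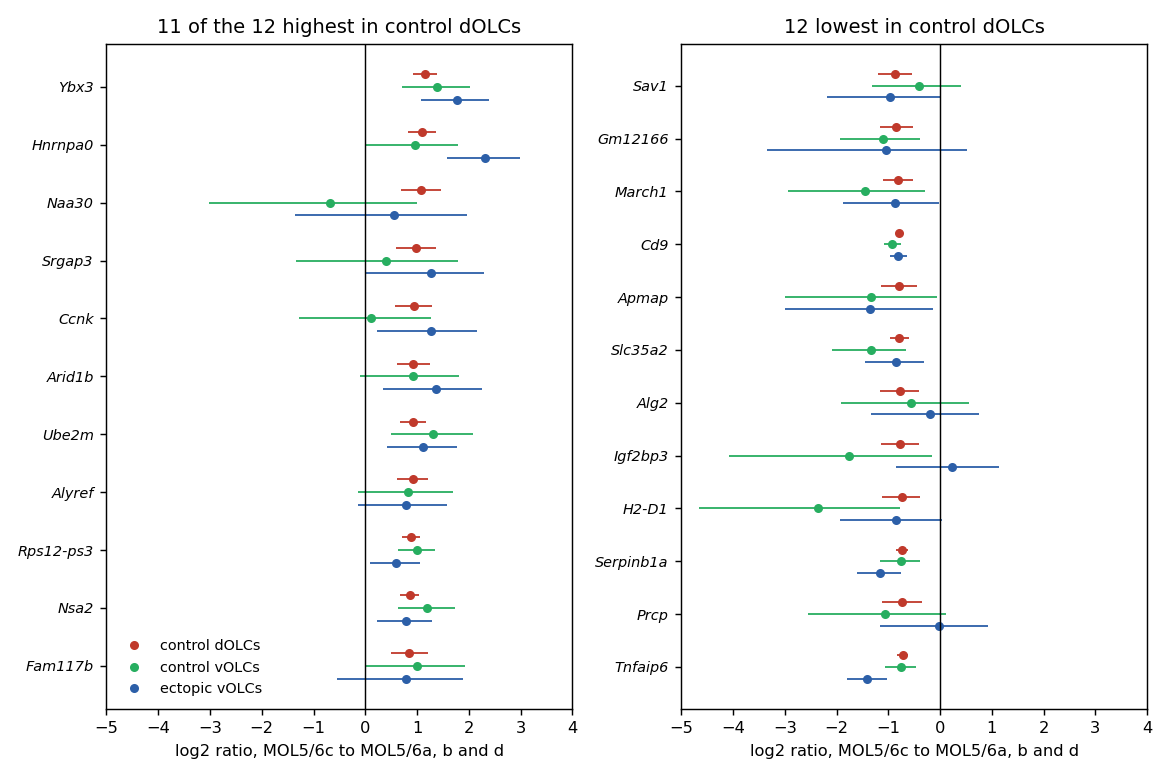
Log2 ratio of the level in MOL5/6c to that in MOL5/6a, b and d together, with exact 95% counting intervals, for 11 of the 12 highest genes and the 12 lowest genes of control dOLCs in each of the 3 libraries. Cd9 has the narrowest intervals, and Naa30 (−0.68, control vOLCs) and Igf2bp3 (0.23, ectopic vOLCs) are the genes whose point lies on the other side of 0.

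Apoe and Trf, abundant genes chosen for description after their values were seen, were lower in MOL5/6c too. Apoe, the main lipid carrier of the brain, stood at 3616 CPM in MOL5/6c and 5874 CPM in the other subclusters of control dOLCs, a log2 ratio of −0.70 (−0.73 to −0.67). In control vOLCs its ratio was −1.03 (−1.12 to −0.95) and in ectopic vOLCs −0.82 (−0.91 to −0.72). Trf, the iron carrier transferrin, stood at 5142 against 8148 CPM in control dOLCs, a log2 ratio of −0.66 (−0.69 to −0.64), and at −0.86 (−0.93 to −0.79) and −0.83 (−0.90 to −0.75) in the other libraries. Per cell thinned to 1000 UMIs, mean Apoe in control dOLCs was 3.59 UMIs in MOL5/6c, 4.63 in MOL5/6d, 6.33 in MOL5/6b and 7.02 in MOL5/6a, and MOL5/6c was the lowest of the 4 in each library. Apoe was at 11178 CPM in OPCs of control dOLCs, and the part of RNA free in the suspension in these values was not tested.

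Genes of the ribosome set MOL5/6c and MOL5/6d apart from MOL5/6a and MOL5/6b. The 48 genes for cytoplasmic ribosomal proteins, which make up the protein part of the translation machinery, summed to 43682 CPM in MOL5/6c of control dOLCs, to 42356 in that of control vOLCs and to 43271 in that of ectopic vOLCs. The corresponding sums in control dOLCs were 23902 CPM in MOL5/6a, 26159 in MOL5/6b and 45884 in MOL5/6d. All 48 genes were above 0 against MOL5/6a (median log2 ratio 0.91) and against MOL5/6b (0.82), and 11 of 48 were above 0 against MOL5/6d (−0.09). At 1.5-fold, 39 and 36 of the 48 were higher than in MOL5/6a and MOL5/6b, beside 25% and 7.22% of all genes. Rps24, at 1006 against 601 CPM, a log2 ratio of 0.74 (0.69 to 0.80), was the highest of the list against the 3 subclusters together, and Rps2, at 705 against 690 CPM (0.03, −0.03 to 0.09), the lowest.

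The same split was seen in single cells at equal depth. With each cell of control dOLCs thinned to 1000 UMIs, the median MOL5/6c cell held 44 UMIs of ribosomal protein genes, with quartiles of 37 and 50. The median was 23 in MOL5/6a, 26 in MOL5/6b and 47 in MOL5/6d. In control vOLCs the MOL5/6c median was 43 and in ectopic vOLCs 44. Among cells of 3500 to 5500 UMIs, a comparison added after the data were seen, the median ratio of the list was 1.02 against MOL5/6a, 0.92 against MOL5/6b and −0.10 against MOL5/6d. For 31 nuclear genes of oxidative phosphorylation, the respiratory chain and ATP synthase, the medians went the same way. They were 0.57, 0.59 and −0.17 against MOL5/6a, MOL5/6b and MOL5/6d, with 27, 30 and 7 of the 31 genes above 0. Against the 3 together Atp5e (0.67, 0.58 to 0.75) and Uqcrq (0.63, 0.55 to 0.72) were highest and Atp5b (−0.20, −0.28 to −0.12) lowest.

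The mitochondrially encoded genes of the same complexes followed another order. Of 12 such genes compared, all were below 0 against MOL5/6a (median −0.25) and MOL5/6b (−0.61), and all were above 0 against MOL5/6d (0.44). Their sum in MOL5/6c of control dOLCs was 56220 CPM, with 67877 in MOL5/6a, 85912 in MOL5/6b and 41515 in MOL5/6d. The percent of mitochondrial UMIs is also a measure of cell quality and was part of the authors' filter. Median UMIs per cell of the 4 subclusters ran in the reverse order, and the part of depth or quality in these values was not tested. In cells of 3500 to 5500 UMIs the medians were −0.27, −0.46 and 0.28.

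The summed list of lysosomal genes was lowest in MOL5/6c. Its 21 genes encode cathepsins and other proteins of the lysosome, but the list and its sums also include Cd81, a tetraspanin of the cell surface. They summed to 8390 CPM in MOL5/6c of control dOLCs, against 14888 in MOL5/6a, 11253 in MOL5/6b and 10111 in MOL5/6d. In control vOLCs and ectopic vOLCs the MOL5/6c sums were 7922 and 7896 CPM. Of 20 genes compared with the 3 subclusters together, 19 were below 0, with a median of −0.42 beside 0.09 for all genes. At least 1.5-fold lower were 3, Cd81 among them, beside 1.11% of all genes. Cd81 was at 2211 against 3391 CPM (−0.62, −0.65 to −0.58), Lamp1, a main protein of the lysosomal membrane, at 1239 against 1778 CPM (−0.52, −0.57 to −0.48), and Npc1, the cholesterol exporter, at 320 against 301 CPM (0.09, −0.00 to 0.18). The median was −0.60 in control vOLCs and −0.59 in ectopic vOLCs. Against MOL5/6d alone it was −0.23, with 16 of 20 genes below 0.

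Of 4 antigen presentation and reactive genes compared, all were below 0 in control dOLCs, at a median of −0.50, beside 37.4% of all genes below 0. They include the marker Il33 and H2-D1, which is one of the 12 lowest genes above. The 5 compared in each of the vOLC libraries were below 0 too (median −0.82 in control vOLCs, −0.79 in ectopic vOLCs). The others in control dOLCs were B2m, the light chain of MHC class I, at 34.7 against 46.0 CPM (−0.41, −0.69 to −0.14), and Ifi27 at 128 against 193 CPM (−0.60, −0.74 to −0.46). A list of 42 genes for protein entry into the endoplasmic reticulum, folding and glycosylation was drawn up after the lowest genes had been seen and is given without weight. Of its 40 genes compared, 32 were below 0 in control dOLCs (median −0.30), and Sec61g was the highest at 0.42 (0.31 to 0.54). A list of 44 genes for RNA binding and splicing, made in the same way, had a median of 0.10 beside 0.09 for all genes, with 6 of 43 at least 1.5-fold higher beside 2.73% of all genes, among them Ybx3 and Hnrnpa0, whose values were known when the list was made.

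**Figure D4:**
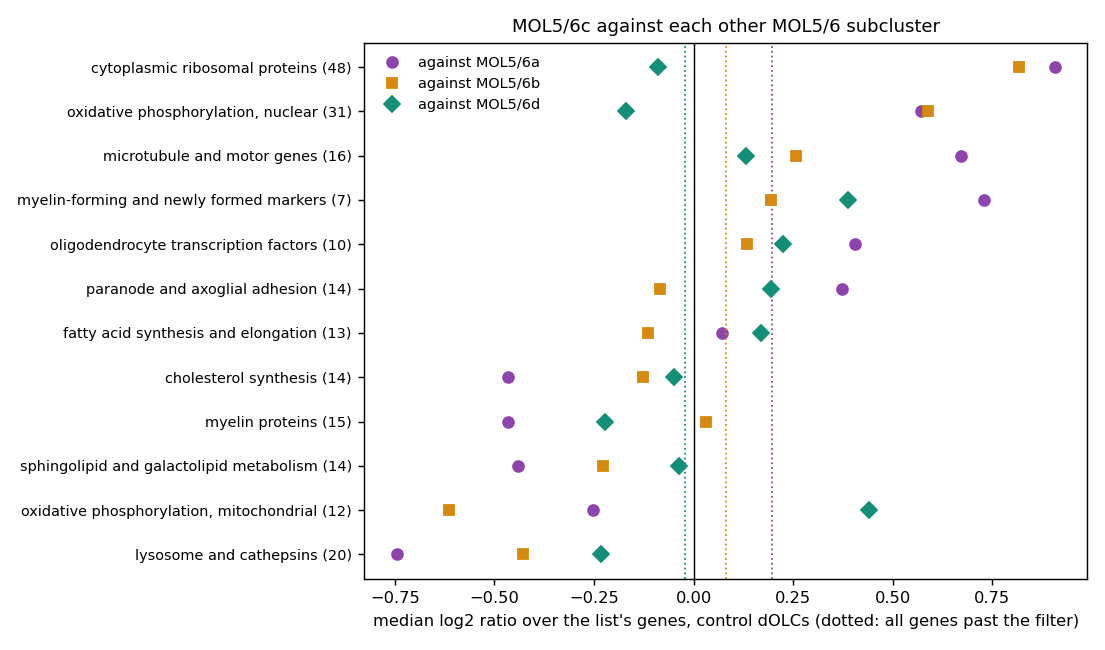
Median log2 ratio of MOL5/6c to MOL5/6a, MOL5/6b and MOL5/6d over the genes of 12 lists in control dOLCs, with the number of genes compared against the 3 together in brackets and dotted lines for the median of all genes in each comparison. Ribosomal genes lie at 0.91 and 0.82 against MOL5/6a and MOL5/6b and at −0.09 against MOL5/6d, and lysosomal genes lie below 0 against all 3.

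Genes of the myelin sheath lay on both sides. Of 15 myelin protein genes, 6 were above 0 and 9 below 0 against the other subclusters of control dOLCs, with a median of −0.12. Mbp was at 5669 against 6176 CPM (−0.12, −0.15 to −0.10). Mag, an adhesion protein at the inner face of the sheath, was at 3288 against 4896 CPM (−0.57, −0.60 to −0.55). On the other side stood Plekhb1 at 914 against 647 CPM (0.50, 0.44 to 0.56), Tspan2 at 1184 against 896 CPM (0.40, 0.35 to 0.45) and Mobp at 2346 against 1893 CPM (0.31, 0.27 to 0.34). Against MOL5/6a the list's median was −0.47 and against MOL5/6b 0.03.

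Lipid genes were likewise divided. Of the 13 genes compared for fatty acid synthesis and elongation, the median was −0.01, with the desaturase Scd2 at 4490 against 3392 CPM (0.40, 0.38 to 0.43) and Fasn, fatty acid synthase, at 230 against 162 CPM (0.51, 0.39 to 0.62), and with Tecr at 639 against 904 CPM (−0.50, −0.56 to −0.44) and Elovl1 at 210 against 297 CPM (−0.50, −0.61 to −0.39), which act in elongation. Of 14 sphingolipid and galactolipid genes, 10 were below 0 (median −0.22), among them the ceramide synthase Cers2 at 499 against 732 CPM (−0.55, −0.62 to −0.48), while Galc, which degrades galactosylceramide, was at 52.3 against 35.7 CPM (0.55, 0.31 to 0.80). Of 14 cholesterol synthesis genes the median was −0.10.

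Of 16 microtubule and motor genes, 12 were above 0 (median 0.32), beside 62.6% of all genes above 0 (median 0.09), and 1 was at least 1.5-fold higher, beside 2.73% of all genes. The list was led by the kinesin Kif5a (0.61, 0.24 to 0.98) and by Tppp, which nucleates microtubules in oligodendrocyte processes, at 455 against 309 CPM (0.56, 0.47 to 0.64). Tubb4a was at 2762 against 2003 CPM (0.46, 0.43 to 0.50) and Tuba1a at 1692 against 1890 CPM (−0.16, −0.20 to −0.12). Of 7 markers of newly formed and myelin-forming oligodendrocytes, 6 were above 0 (median 0.33) and none was at least 1.5-fold higher, beside the same 2.73%. Examples were Tcf7l2 at 38.0 against 27.7 CPM (0.46, 0.17 to 0.74) and Itpr2 at 33.4 against 23.1 CPM (0.54, 0.23 to 0.84). Their summed level was 1524 against 1533 CPM, on the other side from the median, and Sirt2, which holds much of that sum, was at 680 against 844 CPM. Itpr2 and Tcf7l2 were both more abundant in OPCs of control dOLCs, at 252 and 46.5 CPM.

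Within MOL5/6c, ectopic vOLCs were compared with control dOLCs. The ectopic side is the 63 of 2562 cells that the clustering had already placed with MOL5/6c, so likeness between the sides is set by that choice, and the comparison says nothing of ectopic vOLCs at large. Of 5476 genes compared, 62 (1.13%) were at least 2-fold higher and 193 (3.52%) at least 2-fold lower in ectopic vOLCs, and 6.74% and 10.3% passed 1.5-fold. With no filter beyond 1 UMI on each side, 8.72% were higher and 8% lower at 2-fold. That setting leaves out genes absent from the far smaller ectopic side. It therefore cannot show whether the excess of lower genes depends on the filter. In cells of similar depth, an alternative given below, more genes were again lower than higher. Control vOLCs against control dOLCs gave 2.37% higher and 2.54% lower at 2-fold. The comparisons of ectopic vOLCs with each control share the ectopic library and are not independent.

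Tubb3, Eya2 and Tppp were named by the study from these same samples, so their values are not independent evidence of a direction. Tubb3, a beta-tubulin best known in neurons, led the genes higher in ectopic MOL5/6c and passed the filter through the ectopic side alone. It stood at 65.5 CPM (21 UMIs) in ectopic vOLCs, 8.32 CPM (3 UMIs) in control vOLCs and 7.03 CPM (29 UMIs) in control dOLCs. Against control dOLCs the log2 ratio was 3.22 (2.34 to 4.08), and 2.98 (1.23 to 5.37) against control vOLCs. The ratio to control dOLCs was similar in MOL5/6a (3.37) and MOL5/6d (3.32), and the OPCs of ectopic vOLCs held 131 CPM. The neuron marker Snap25 stood at 9.35 CPM on 3 UMIs in ectopic MOL5/6c and at 5.09 CPM in control dOLCs.

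Eya2, a transcriptional coactivator and phosphatase, was the reverse. It stood at 3.12 CPM (1 UMI) in ectopic vOLCs, 49.9 CPM (18 UMIs) in control vOLCs and 52.8 CPM (218 UMIs) in control dOLCs, a log2 ratio of −4.08 (−9.39 to −1.59) to control dOLCs and −4.00 (−9.38 to −1.34) to control vOLCs. In MOL5/6a and MOL5/6d the ratios to control dOLCs were −4.29 and −5.94. Tppp, higher in MOL5/6c than in its neighbours, stood at 281 CPM in ectopic vOLCs, 499 in control vOLCs and 455 in control dOLCs. Its log2 ratios were −0.70 (−1.02 to −0.39) to control dOLCs and −0.83 (−1.21 to −0.46) to control vOLCs.

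Magi1, a scaffold of cell junctions, stood at 187, 36.0 and 56.5 CPM in ectopic vOLCs, control vOLCs and control dOLCs, a log2 ratio of 1.73 (1.29 to 2.14) to control dOLCs, and it was at 1.77 and 1.88 in MOL5/6a and MOL5/6d. Polr2f, a subunit of the RNA polymerases, stood at 552, 305 and 231 CPM, a log2 ratio of 1.26 (1.02 to 1.49). Polr2f (mm10 chr15:79141009-79151774, plus strand) lies beside Sox10 (mm10 chr15:79154908-79165240, minus strand). Sox10 stood at 458, 507 and 560 CPM. Gm10260, a close copy of Rps18, was at 3.12, 197 and 86.7 CPM, while Rps18 was at 655, 588 and 600 CPM. Reads of that pair cannot be assigned with certainty.

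For several of the remaining genes the ratio in MOL5/6c was far from that in the other subclusters. P2rx4, an ATP-gated ion channel, held 1 UMI in ectopic MOL5/6c (3.12 CPM), 11 in control vOLCs (30.5 CPM) and 153 in control dOLCs (37.1 CPM), a log2 ratio of −3.57 (−8.88 to −1.07) to control dOLCs, against −0.03 in MOL5/6a and −0.01 in MOL5/6d. Mul1, a mitochondrial ubiquitin ligase, was at 56.1, 11.1 and 20.8 CPM in ectopic vOLCs, control vOLCs and control dOLCs, a log2 ratio of 1.43 (0.61 to 2.17), against 0.08 and −0.33. Actr8, of the INO80 complex, was at 1.42 (0.51 to 2.24), against 0.02 and −0.11, although it was at 1.25 in MOL5/6b on 9 UMIs. These genes were picked as extremes among 5476 from small counts, and whether the subclusters differ was not tested. Mul1 and Actr8 passed the filter through the ectopic side alone, where they were high. That selection favours a high ratio in MOL5/6c, so their contrast with MOL5/6a and MOL5/6d is no support for a difference. Bcat1 and Prim2, which also passed the filter through the ectopic side alone, were each at 1.31 (0.40 to 2.12). Erdr1, PISD, Rab6b, Bmpr2 and Pacsin1 ranged from −4.01 to −2.51 on 1 to 4 UMIs in ectopic vOLCs. Of the 5476 genes compared with control dOLCs, 53 higher and 60 lower in ectopic MOL5/6c had counting intervals that left out 0 against both controls. The filter was not asked of the comparison with control vOLCs, where 2025 genes passed it. Both comparisons use the same ectopic cells, so these counts are no support for a direction.

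**Figure D5:**
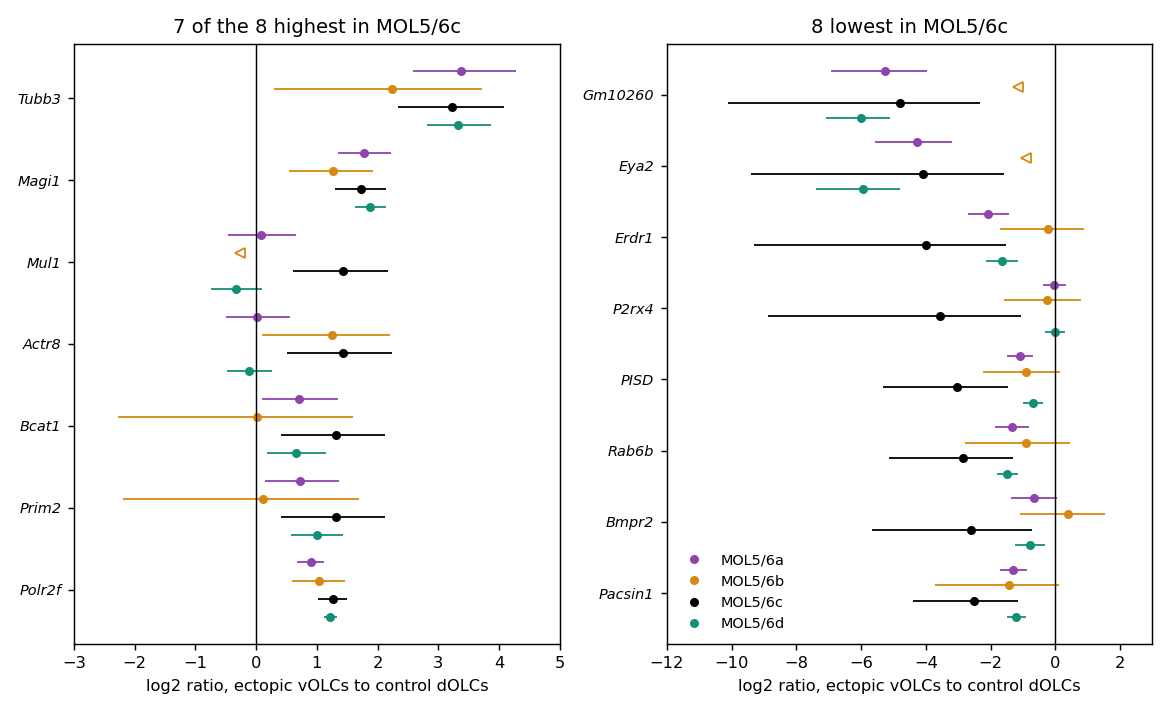
Log2 ratio of the ectopic library to control dOLCs in each MOL5/6 subcluster, with exact 95% counting intervals, for 7 of the 8 highest genes and the 8 lowest genes of MOL5/6c (black). Open triangles mark MOL5/6b ratios computed with 3 counts in place of 0 UMIs in ectopic vOLCs. Tubb3 lies near 3 in MOL5/6a, c and d, and the P2rx4 point lies at −3.57 in MOL5/6c and between −0.27 and −0.01 in the other subclusters.

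Scd2, Qk and Abca2, genes of lipid desaturation, RNA processing of myelin transcripts and lipid transport, were chosen with earlier results of these data known. They had ratios nearer 0 in MOL5/6c than in MOL5/6a and MOL5/6d, a difference that was not tested. Ectopic cells were placed in MOL5/6c by likeness to it, so ratios near 0 there are no support for a trait of the subcluster. Scd2 stood at 4205, 4671 and 4490 CPM in ectopic vOLCs, control vOLCs and control dOLCs, a log2 ratio of −0.09 (−0.18 to −0.01) to control dOLCs, while it was −0.48 in MOL5/6a and −0.56 in MOL5/6d. Qk stood at 1708, 1962 and 1753 CPM, a log2 ratio of −0.04 (−0.16 to 0.09), and −0.61 and −0.19 in those subclusters. Abca2 stood at 730, 757 and 816 CPM, a log2 ratio of −0.16 (−0.36 to 0.03), and −0.38 and −0.45 in those subclusters.

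The same gene groups are given within MOL5/6c as a description, since cells were put in the cluster by these genes. The ribosomal protein list had a median log2 ratio of 0.02 in ectopic vOLCs against control dOLCs, with 29 of 48 genes above 0 and none past 1.5-fold, beside −0.02 for all genes. The nuclear oxidative phosphorylation list was at 0.01, the myelin proteins at −0.01 and the lysosomal list at −0.10. The mitochondrially encoded list was at 0.26, with 11 of 12 genes above 0 and 2 past 1.5-fold higher (6.74% of all genes), beside median mitochondrial percents per cell of 6.28 in ectopic vOLCs and 5.56 in control dOLCs. Of 17 microtubule and motor genes, 13 were below 0, at a median of −0.13.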

How the data were processed

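The authors deposited raw UMI counts per gene and cell from Cell Ranger (2.1.1 in the submitters' processing notes and 3.1.0 in the methods) with the mm10 genome, and an annotation with library, cluster and quality values, including each cell's percent of mitochondrial UMIs as the authors deposited it. The percents of mitochondrial UMIs given here were computed from the counts. They kept cells with over 200 and under 3000 genes and at most 15% mitochondrial UMIs, and drew 11 clusters with Seurat. Here UMIs were summed per cluster and library and scaled to 1000000. Ratios carry conditional exact binomial intervals, shares Clopper-Pearson intervals and CPM exact Poisson intervals, all at 95%. A side with 0 UMIs was entered as 3 counts. Genes needed 50 UMIs over both sides and a UMI in 10% of the cells of one. The functions were tested on simulated data. Neighbours were found in 50 principal components of 3000 genes after a square root. Doublets were kept, and Scrublet (scanpy 1.11.5) ranked cells for an alternative. Gene positions and transcript lengths are from GENCODE vM21 (GRCm38). Columns of cells failing quality control were used only in the Scrublet ranking.

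Genes were named by rule: the 4 markers; the 12 highest and 12 lowest ratios of MOL5/6c to the other MOL5/6 subclusters in control dOLCs with the same sign against each; the 8 highest and 8 lowest ratios of the ectopic library to control dOLCs within MOL5/6c with the same sign and both intervals leaving out 0 against both controls; Tubb3, Eya2, Tppp, Polr2f, Scd2, Qk and Abca2; and from each list described its 2 highest, its 2 lowest and members above 1000 CPM, of which a selection is printed. The members and lists were chosen with earlier results of these data known. Results of a few genes that these rules name are not reported here. The 4 P0 samples were not analysed here. Alternatives used edgeR 4.0.16 (TMM) and DESeq2 1.42.0 (size factors) on the deposited counts.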

Additional observations from a re-analysis of the deposited data

How the results depend on the processing

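No paired analysis was possible because no condition has a second library. Over 142 alternatives of the main results, 86 stayed within a set range, 56 left it and none changed the sign of a ratio whose interval left out 0. The range was the counting interval for shares and ratios, 1.5 times for percents of genes and the quartiles of a list's genes for list medians. Dropping the filter leaves a single-gene ratio unchanged by construction, and such cases were counted as within, also for the other named genes. The share among MOL5/6 cells alone has another denominator. The cause of the moves was not tested. The share of control dOLCs in MOL5/6c was 17.7% at a mitochondrial limit of 10%. Among MOL5/6 cells alone the shares were 24.6%, 9.45% and 3.42% for control dOLCs, control vOLCs and ectopic vOLCs. For Ptgds, Il33 and Car2 against the other subclusters the log2 ratios were −0.44, −0.37 and −0.38 with TMM factors and −0.44, −0.37 and −0.37 with median of ratios size factors. Il33 and Car2 were −0.22 and −0.24 with the mean over cells and −0.21 and −0.27 with cells thinned to 1000 UMIs. Ptgds and Car2 were −0.37 and −0.35 at the mitochondrial limit of 10% and −0.37 and −0.36 in cells of 3500 to 5500 UMIs, an alternative chosen after seeing the data. Ptgds was −0.37 without the highest Scrublet scores. Against MOL5/6b alone Ptgds, Il33, Car2 and Grm3 were −0.26, −0.15, −0.075 and −0.10, and the interval of Grm3 held 0 against MOL5/6b as it did against the 3 together. In control vOLCs the 4 markers were at −0.48, −0.82, −0.47 and −0.14, and in ectopic vOLCs the first 3 were at −0.47, −0.65 and −0.45.

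The percent of genes at least 2-fold higher and lower in MOL5/6c was 0.141 and 0.0201 with the mean over cells, 5.97 and 2.9 with no filter beyond 1 UMI on each side, 0.486 and 0.175 in cells of 3500 to 5500 UMIs, 0.609 and 0.0406 against MOL5/6b alone, 2.48 and 4.22 in control vOLCs, and 9.73 and 4.5 in ectopic vOLCs. It was 0.197 higher with thinned cells, and 0.0197 and 0.0204 lower at the mitochondrial limit and without the highest Scrublet scores. For ectopic vOLCs against control dOLCs it was 8.72 and 8 without the filter, 1.75 and 8.4 in cells of 3500 to 5500 UMIs, 0.296 and 1.78 against control vOLCs, and 3.13 higher with thinned cells. The median of the mitochondrially encoded list was −0.23 in cells of 3500 to 5500 UMIs. With thinned cells, 65.0%, 15.9% and 11.0% of neighbours were MOL5/6c, MOL5/6d and MOL5/6b. Of 420 alternatives for the other named genes, 52 left the interval and 3 changed sign: Naa30 in control vOLCs (−0.68), Igf2bp3 in ectopic vOLCs (0.23) and Prim2 with thinned cells (−0.12). Eya2 held 0 UMIs in ectopic vOLCs with thinned cells and in cells of 3500 to 5500 UMIs, which gave no value. The small numbers of MOL5/6c cells, 53 in control vOLCs and 63 in ectopic vOLCs, limit what can be read from them: genes such as Eya2 and P2rx4 rest on 1 UMI in ectopic vOLCs, and intervals cover counting error only.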
